A study of Mus musculus with 2 samples.

Results

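Def8, Crabp2, Prl2c2, Hmga2, Dynap, Tafa1, Gpc6 and Lgals1 are 8 of the 55357 genes in the count tables, and were chosen because they mark a small, RNA-rich group of lung barcodes in these libraries. They were matched by gene symbol. The group is defined here as the barcodes with at least 100 unique molecular identifiers (UMIs, tags that count each captured RNA molecule once) of Def8, called Def8-high below. Because measured values chose both the genes and the barcodes, the concentration of these genes in Def8-high barcodes is given as a description and supports nothing.

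Lungs of female Balb/C mice that carried orthotopic tumours of K7M2, an osteosarcoma cell line of BALB/c origin known for spreading to the lung, were profiled as single cells on the 10x Chromium platform. One group received the liposome formulation 1V209-Cho-Lip, named in the series title as a TLR7 agonist nanomedicine, and the control group received PBS. Mice were assigned to the groups at random. By the series' design text the lungs of 3 mice were pooled for each sample, while the sample titles speak of a single mouse. Either way there was 1 library per group, so no test between groups was possible and every interval below is a 95% interval for counting error alone. Age, dose and timing of treatment are not given in the sources used here, and no label says which cells are tumour cells.

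The identifiers and mm10 positions (GENCODE vM21 gene models) are as follows. Def8 is ENSMUSG00000001482 at chr8:123423527-123463270 on the plus strand, and Crabp2 is ENSMUSG00000004885 at chr3:87948666-87953376 on the plus strand. Prl2c2 is ENSMUSG00000079092 at chr13:12996125-13005383 on the minus strand, and Hmga2 is ENSMUSG00000056758 at chr10:120361275-120476469 on the minus strand. Dynap is ENSMUSG00000024512 at chr18:70240429-70244582 on the minus strand, and Tafa1 is ENSMUSG00000059187 at chr6:96113154-96657198 on the plus strand. Gpc6 is ENSMUSG00000058571 at chr14:116925315-117976544, and Lgals1 is ENSMUSG00000068220 at chr15:78926725-78930465.

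The genes have unlike roles. Crabp2 carries retinoic acid to its nuclear receptors, and Hmga2 is an architectural chromatin protein of embryonic tissue that is silenced in most adult cells and regained in many tumours. Prl2c2 encodes proliferin, a secreted prolactin-family hormone of the placenta. Galectin-1, the product of Lgals1, is a secreted sugar-binding protein made by mesenchymal cells, activated lymphocytes and many cancers. Gpc6 encodes a cell-surface heparan sulfate proteoglycan of the glypican family, Tafa1 a small secreted chemokine-like protein best known from brain, Dynap a dynactin-associated membrane protein, and Def8 a regulator of lysosome positioning that has been studied in osteoclasts.

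The treated library held 13740 barcodes and 54843992 UMIs, and the PBS library 14622 barcodes and 58156102 UMIs. Median depth was 2645.5 and 2376 UMIs per barcode. Barcode sequences found in both libraries numbered 268, and 4 Def8-high barcodes were among them. Scrublet called 10.3% and 12.5% of barcodes doublets, and these were kept except where stated. Treatment, library and mice cannot be told apart.

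Def8-high barcodes were rarer in the treated library. They numbered 40 of 13740 (0.291%, 0.208 to 0.396%) in the treated library and 128 of 14622 (0.875%, 0.731 to 1.04%) in the PBS library, a ratio of shares of 0.333 (0.227 to 0.478). Without barcodes found in both libraries the ratio was 0.344. With Def8 at 1% or more of a barcode's UMIs as the definition, which does not scale with depth, 17 and 97 barcodes qualified and the ratio was 0.187. They were also far deeper than the rest, with a median of 69996 and 58278 UMIs against 2638 and 2358 in the other barcodes, and so held 4.98% and 13.5% of all UMIs. The 3 barcodes just inside the threshold had 123, 135 and 152 Def8 UMIs (treated), and 100, 126 and 133 (PBS). Those just outside had 86, 86 and 85, and 97, 93 and 92. Scrublet called 1 treated and 15 PBS Def8-high barcodes doublets, and without called doublets the ratio of shares was 0.358.

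Clustering of both libraries without the 8 genes put 37 of 40 and 127 of 128 Def8-high barcodes into one cluster, number 20 of 33, which held 54 treated and 229 PBS barcodes. Apart from the members, the 10 genes that stood out most in the cluster included Il1rl1, Apol9a, Apol9b, Cda and Rbp2. Of 17 osteoblast-lineage markers, 11 had at least 20 UMIs over both libraries, and 7 of these were at least 1.5-fold higher in Def8-high than in other barcodes in both libraries. Over all genes 20.9% were that much higher and 46% that much lower, and the list's median log2 ratio was 3.04 and 2.97 against -0.39 and -0.63 for all genes. These barcodes were chosen by readout, so nothing is read from the counts. Among the 7 were the collagen genes Col1a1 and Col1a2, the matrix genes Spp1 and Sparc, Phex and Twist1. Col1a1 stood at 913 and 1156 CPM (UMIs of the gene per 1000000 UMIs summed over the barcodes named) in treated and PBS Def8-high barcodes, 27.0-fold and 20.2-fold above other barcodes. Phex, an endopeptidase gene of osteoblasts and osteocytes, stood at 31.1 and 31.3 CPM, 20.04-fold and 19.45-fold higher. Alkaline phosphatase (Alpl), Postn and Cdh11 were lower, Runx2 was at 0.696-fold and 0.548-fold, and Sp7, Ibsp and Bglap were among those with too few UMIs. Some genes of the list were thus higher and others lower or too sparse to measure. No lineage is read from them, and the barcodes are called by their Def8 count.

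The 8 genes fell into 2 sets by how much of their RNA lay in Def8-high barcodes. Crabp2, Prl2c2, Dynap and Def8 were found mostly in them, whereas Hmga2, Lgals1, Tafa1 and Gpc6 had larger shares elsewhere. Crabp2 had 95.5% (94.5 to 96.3%) of its 2271 treated UMIs and 94.1% (93.5 to 94.6%) of its 7643 PBS UMIs there. Prl2c2 had 96.7% of 2008 and 93.8% of 4979, and Dynap 93.5% of 338 and 94.4% of 1813. Def8, whose own count set the threshold, had 92.5% of 35075 and 95.4% of 172764. Ranked by the lower of the shares in the libraries among 11749 genes with at least 200 UMIs in each, Crabp2 was number 1, Prl2c2 number 2, Dynap number 3 and Def8 number 6. The shares of Hmga2 matched between libraries at 71.8% and 71.8%, with intervals of 68.8 to 74.7% and 70.2 to 73.3%. Lgals1 had 59.9% and 74.1%, Tafa1 39.9% and 58.0%, and Gpc6 34.9% (30.5 to 39.6%) and 52.6% (49.9 to 55.2%). The shares of Lgals1, Tafa1 and Gpc6 were lower in the treated library, which had fewer Def8-high barcodes.

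The same split showed in the levels. Crabp2 stood at 794 CPM in treated Def8-high barcodes and 1.98 CPM in all other treated barcodes, and in the PBS library at 916 and 9.01 CPM. Dynap stood at 116 against 0.422 CPM, and in the PBS library at 218 against 2.03 CPM. For Gpc6 the levels were 56.1 against 5.47 CPM, and 92.7 against 13.1 CPM. The other barcodes are pooled here, and some sets of lung barcodes reached the Def8-high level of Gpc6 or Tafa1, as given below. In both libraries the ratio of Def8-high to other barcodes was above 90 for Crabp2, Prl2c2, Dynap and Def8, between 16.3 and 48.7 for Hmga2 and Lgals1, and between 7.10 and 12.7 for Tafa1 and Gpc6.

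**Figure D1:**
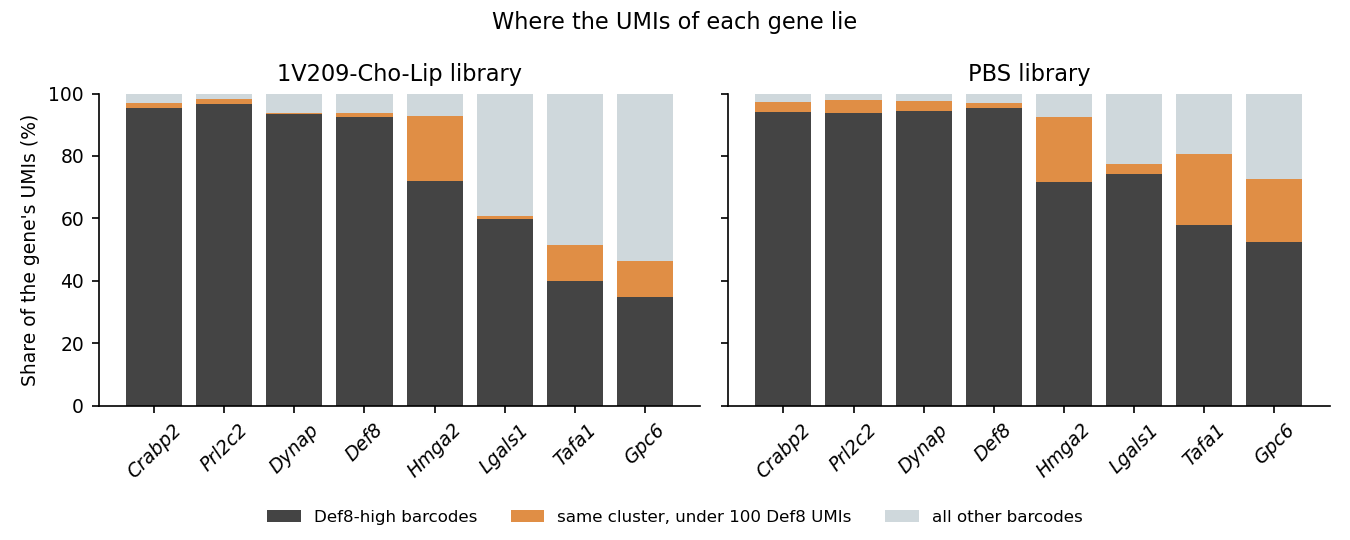
Share of each gene's UMIs (percent, vertical axis) in Def8-high barcodes, in the remaining barcodes of the same cluster and in all other barcodes, for the treated (left) and PBS (right) library. The first 4 genes have 92.5% or more in Def8-high barcodes in both libraries, and Hmga2, Tafa1 and Gpc6 have a visible share, 11.4 to 22.8%, in cluster barcodes under 100 Def8 UMIs.

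Among the other genes most like the members by the same ranking were Rbp2, Dlk2, Cda, Ubd, Apol9a, Apol9b, Hspb7 and Steap1. Rbp2, a cytoplasmic retinol-binding protein gene known from intestine, had 93.5% of 277 treated and 92.9% of 995 PBS UMIs in Def8-high barcodes and was detected in 97.5% and 94.5% of them. Dlk2, a transmembrane relative of the Notch ligands, had 93.4% and 92.7%. Steap1, a metalloreductase gene raised in several cancers, had 86.5% and 92.5%. Of the 11749 genes ranked, 10 had at least 90% of their UMIs in Def8-high barcodes in both libraries and 98 had at least 50%.

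Prl2c2 cannot be separated fully from its closest copy. In GENCODE vM21 the coding sequences of Prl2c2 and Prl2c3 are both 672 bases long and differ at 3 bases, an identity of 99.6%, so reads may be split or lost between them. The stretch of coding bases 200 to 319, 5′ to 3′ on the coding strand, holds 2 of the 3 differences, which are in capitals.
Prl2c2: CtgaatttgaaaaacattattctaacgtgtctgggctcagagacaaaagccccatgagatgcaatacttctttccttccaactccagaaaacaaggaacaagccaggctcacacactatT
Prl2c3: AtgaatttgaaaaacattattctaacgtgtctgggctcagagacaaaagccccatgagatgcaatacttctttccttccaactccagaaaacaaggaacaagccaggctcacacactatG
Prl2c3 followed Prl2c2 into the same barcodes, with 91.6% of its 143 treated and 91.1% of its 360 PBS UMIs in Def8-high barcodes. Prl2c5, whose coding sequence is 666 bases long, had 2 and 13 UMIs in all. The receptor gene Prlr had 87 and 63 UMIs in all and stood at 0 and 0.127 CPM in Def8-high barcodes. The remaining genes of the 11-gene prolactin list had under 20 UMIs over both libraries or no row.

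Per barcode, the members varied to very different degrees. Lgals1 was the most even. Its level ran from 1700 through a median of 9277 to 14499 CPM in the 40 treated Def8-high barcodes and from 113 through 9329 to 18311 CPM in the 128 PBS ones, with coefficients of variation of 0.310 and 0.332. Crabp2 was next, with medians of 667 and 852 CPM and coefficients of 0.526 and 0.516. The treated and PBS barcodes overlapped over most of the range for these genes. Def8 ran from 1813 through 7041 to 44459 CPM in treated and from 2322 through 13186 to 140337 CPM in PBS barcodes, with coefficients of 0.901 and 1.02. One PBS barcode alone held 15518 Def8 UMIs, 9.42% of the Def8 UMIs of all PBS Def8-high barcodes. Tafa1 and Gpc6 were the least even in the PBS library, with coefficients of 2.94 and 2.71. In the treated library theirs were 1.19 and 1.12, and that of Prl2c2 was 1.27.

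Part of the unevenness of Tafa1 and Gpc6 in the PBS library lay in 4 barcodes, chosen after the per-barcode values were seen. The 4 PBS Def8-high barcodes with the highest Gpc6 levels, 951 to 2299 CPM, were also the 4 with the highest Hmga2 levels, 1368 to 5465 CPM, and 3 of them led Tafa1. They ranked 1, 2, 3 and 6 from the lowest for Lgals1, at 113 to 3305 CPM, and 2 of them had no Crabp2 UMI. All lay in cluster 20 and had 17884 to 32892 UMIs, below the median of the group. They held 26.9% of the Gpc6, 17.9% of the Tafa1 and 16.4% of the Hmga2 UMIs of the 128 barcodes, and 0.157% of their Lgals1 UMIs. A minority of the cluster's barcodes under the threshold had the same pattern, as given below.

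**Figure D2:**
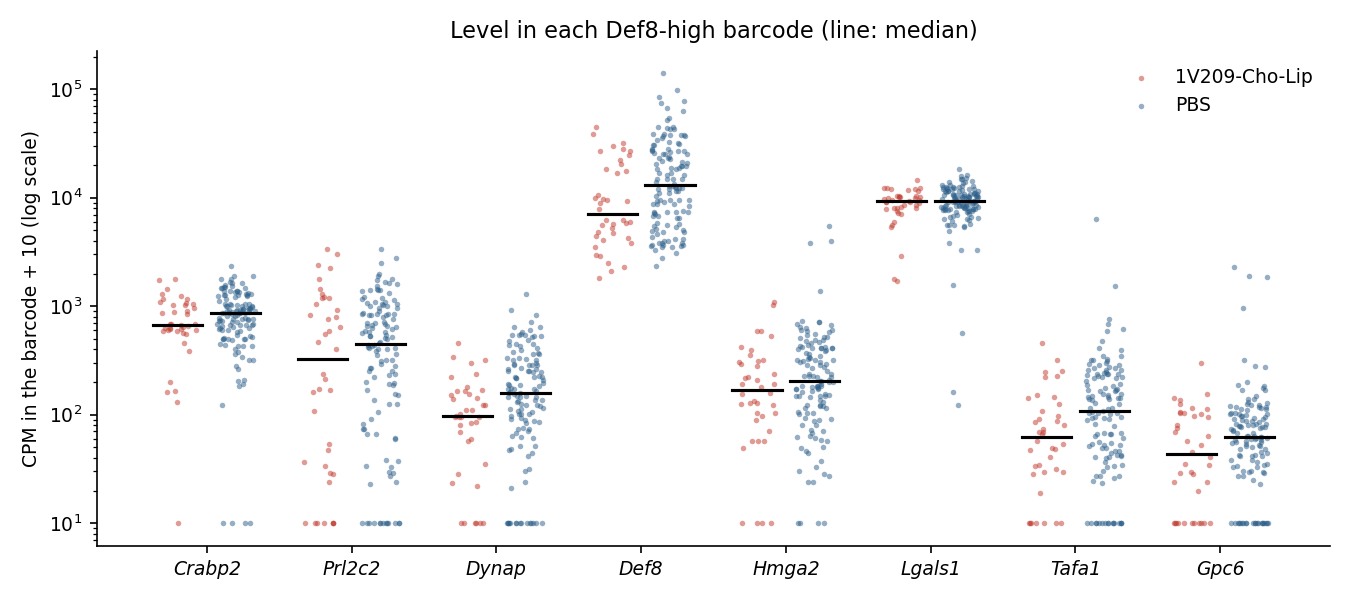
Level of each gene in each Def8-high barcode, as CPM of that barcode plus 10 on a log axis, with 40 treated and 128 PBS barcodes and a line at the median. Barcodes without a UMI of the gene lie at 10. Lgals1 lies in a narrow band but for a few low barcodes, Def8 is spread widely, and the treated and PBS barcodes overlap for every gene.

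Most Def8-high barcodes carried most members. All 8 genes were detected in 21 of 40 treated and 84 of 128 PBS barcodes, and at least 6 in 36 and 121. Lgals1 was detected in 100% of both, Crabp2 in 97.5% and 96.9%, Hmga2 in 90% and 96.9%, Prl2c2 in 82.5% and 89.8%, Dynap in 85% and 88.3%, Tafa1 in 82.5% and 87.5%, and Gpc6 in 72.5% and 83.6%. Depth bears on these shares. In 1 draw of 5000 UMIs per barcode, which left out 0 treated and 1 PBS barcode, the median was 5 and 6 genes. Over 20 further draws at that depth Crabp2 was found in a mean of 90.3% of treated (82.5 to 95% by draw) and 93.2% of PBS barcodes (90.6 to 96.9%). Tafa1 was found in 29.3% (20 to 37.5%) and 41.9% (38.6 to 47.2%), and Dynap in 36.3% (17.5 to 50%) and 52.8% (43.3 to 59.8%). Hmga2 was found in 52.3% and 62.6%, Prl2c2 in 59% and 70.4%, and Gpc6 in 19.8% and 27.3%. The means were lower in the treated library for these 6 genes. The ranges of the draws overlapped for Crabp2, Dynap, Hmga2, Prl2c2 and Gpc6 and not for Tafa1, and they leave out the error between barcodes and mice.

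Correlations between the levels of members across Def8-high barcodes differed from pair to pair. Pearson correlations of log2 levels after thinning to 5000 UMIs are given as descriptions over 40 treated and 127 PBS barcodes, each set from 1 library. At that depth Tafa1 and Gpc6 were missed in most barcodes, and sparse counts pull r toward 0. A value near 0 is therefore not read as a lack of shared expression. Def8 had r = -0.20 with Crabp2 and -0.03 with Lgals1 in treated barcodes, and -0.02 and -0.09 in PBS barcodes. Crabp2 and Lgals1 were positive in both, at 0.29 in treated and 0.39 in PBS barcodes. The long genes were positive with each other, except in 1 pair of the treated library. Hmga2 had 0.23 and 0.35 with Tafa1 and 0.10 and 0.36 with Gpc6, and Tafa1 had -0.12 and 0.23 with Gpc6. The value farthest from 0 was -0.53, between Gpc6 and Lgals1 in PBS barcodes, against 0.07 in treated ones. It rested on the 4 barcodes described above: at full depth, on log2 of CPM plus 10, Gpc6 and Lgals1 had -0.45 over 128 PBS barcodes and 0.01 over the remaining 124. In the same comparison Crabp2 and Lgals1 had 0.71 and 0.49, Hmga2 and Tafa1 0.50 and 0.39, and Hmga2 and Gpc6 0.43 and 0.23. Grouped by Def8 count, PBS barcodes with 200 to 499 Def8 UMIs had a median Crabp2 level of 863 CPM and those with 1000 or more had 886 CPM. Their Lgals1 medians were 9925 and 9258 CPM.

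A different pattern stood below the threshold, and it was carried by a minority of barcodes. Cluster 20 also held 17 treated and 102 PBS barcodes with under 100 Def8 UMIs. Summed over them, Hmga2 was at 1411 and 937 CPM, against 243 and 295 CPM in Def8-high barcodes, ratios of 5.81 (4.92 to 6.83) and 3.18 (2.91 to 3.47). Tafa1 had ratios of 5.84 and 4.34, and Gpc6 6.56 and 4.22, whereas Lgals1 had 0.286 and 0.498 and Crabp2 0.287 and 0.373. Each of the long genes was missing from more of these barcodes than had it. Hmga2 was detected in 5 of 17 and 50 of 102 of them, Tafa1 in 7 and 33, and Gpc6 in 5 and 35.

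The barcodes were therefore split, by a rule chosen after these values were seen, into those with more UMIs of Hmga2, Tafa1 and Gpc6 together than of Lgals1, called long-gene barcodes here, and the rest. Long-gene barcodes numbered 6 of 17 treated and 21 of 102 PBS barcodes under the threshold, and held 69.5% and 27.6% of the UMIs there. They held 192 of 192 and 545 of 666 Hmga2 UMIs and 12 of 364 and 40 of 3407 Lgals1 UMIs. Their Hmga2 level was 2032 and 2774 CPM, their Tafa1 level 709 and 2184 CPM and their Gpc6 level 529 and 1094 CPM. Crabp2 had 0 and 3 UMIs in them and Lgals1 stood at 127 and 204 CPM. The split itself fixes the direction of Hmga2, Tafa1, Gpc6 and Lgals1, so nothing is read from it. Prl2c2, which the split did not use, was at 286 and 326 CPM, a ratio to Def8-high barcodes of 0.401 (0.264 to 0.586) and 0.548 (0.421 to 0.701), and Def8 was at 1831 and 2779 CPM.

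In the remaining 11 treated and 81 PBS barcodes the long genes were not raised as in the sums. Hmga2 had 0 UMIs in the treated ones, and in PBS it stood at 235 CPM, a ratio to Def8-high barcodes of 0.798 (0.659 to 0.959). Tafa1 was at 0.554 (0.0667 to 2.02) on 2 treated UMIs and at 0.768 (0.586 to 0.989) in PBS. Gpc6 had 0 treated UMIs and a PBS ratio of 1.32 (1.005 to 1.71). Lgals1 stood at 8473 and 6547 CPM, ratios of 0.906 (0.813 to 1.007) and 0.680 (0.657 to 0.704), and Crabp2 at 746 and 467 CPM, ratios of 0.939 (0.637 to 1.34) and 0.510 (0.446 to 0.580). Prl2c2 had 2 UMIs in the treated ones and a ratio of 0.455 (0.381 to 0.538) in PBS, and Dynap had 1 UMI and a PBS ratio of 0.393 (0.284 to 0.529). The split fixes the direction of Lgals1 and the long genes here as well, so nothing is read from them. Crabp2 lay nearer to Def8-high levels in these barcodes than in long-gene barcodes. The split did not use Crabp2, but its level went with that of Lgals1 across Def8-high barcodes. Nothing is therefore read from Crabp2 either. Among Def8-high barcodes the same rule found 0 of 40 treated ones and 4 of 128 PBS ones, the same 4 that led Gpc6.

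Hmga2, Tafa1 and Gpc6 are the longest of the 8 genes. Gpc6 spans 1051 kb, Tafa1 544 kb and Hmga2 115 kb in GENCODE vM21, whereas Def8 spans 39.7 kb, Prl2c2 9.26 kb, Crabp2 4.71 kb, Dynap 4.15 kb and Lgals1 3.74 kb. Other long genes were high in the same barcodes. With the members set aside, genes of 100 to 500 kb held 26.8% and 31.9% of the UMIs of long-gene barcodes under the threshold, against 5.33% and 5.78% in Def8-high barcodes, and genes under 10 kb held 18.01% and 14.6% against 49.2% and 48.4%. In the 4 PBS Def8-high barcodes of this kind the shares were 30.1% for genes of 100 to 500 kb and 15.3% for genes under 10 kb. In the remaining barcodes under the threshold, genes of 100 to 500 kb held 3.57% (treated) and 8.29% (PBS), and genes under 10 kb 53.99% and 40.6%. The relation of level to length was thus reversed in the treated remainder and small in the PBS one. The median log2 ratio to Def8-high barcodes for genes of 100 to 500 kb was 2.20 and 2.51 in long-gene barcodes and -0.50 and 0.53 in the rest.

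The barcodes differed in other measures too. Median depth was 12220 and 5910 UMIs in long-gene barcodes under the threshold, 1748 and 3219 in the rest, and 69996 and 58278 in Def8-high barcodes. Mitochondrial genes held 3.36% and 3.53% of the UMIs of long-gene barcodes, 0.289% and 1.42% of those of the rest, and 0.641% and 0.730% of those of Def8-high barcodes. The nuclear RNA Malat1 held 2.41% and 3.82%, 0.111% and 0.604%, and 0.519% and 0.573%. Scrublet called 0 of the long-gene barcodes and 0 treated and 12 PBS barcodes of the rest doublets. The part of depth and RNA quality in these values was not tested.

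**Figure D3:**
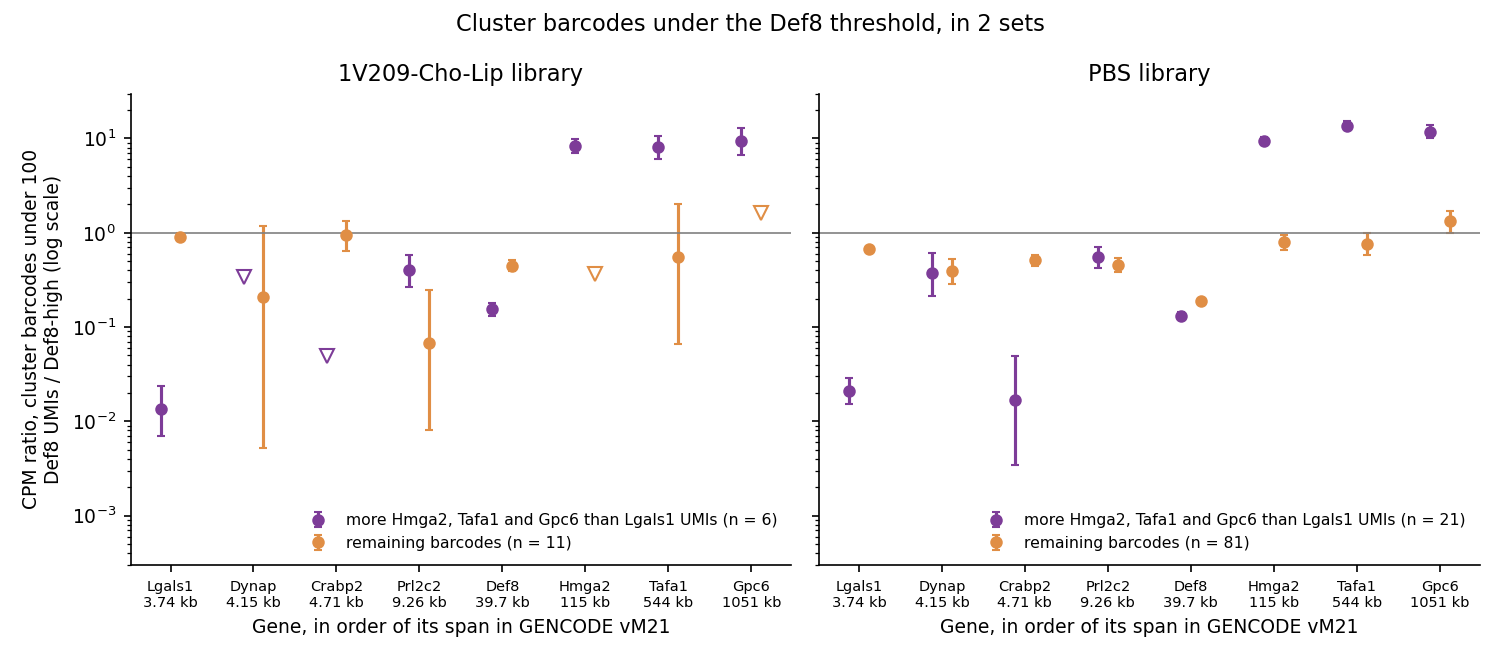
Ratio of CPM in cluster barcodes under 100 Def8 UMIs to CPM in Def8-high barcodes (vertical, log scale) for each gene in order of its span in kb, with 95% counting intervals, in long-gene barcodes and in the remaining ones, for the treated (left) and PBS (right) library. Open triangles give the upper limit where there was no UMI. Hmga2, Tafa1 and Gpc6 lie at 8.16 or higher in long-gene barcodes, and at 1.32 or lower, or at no UMI, in the rest.

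The RefSeq promoter table used here (GRCm38.p6) was matched for 3 of the 8 genes, the long genes Hmga2 and Tafa1 and Def8. The upstream sequence is shown for these genes for that reason. Each line gives the 250 bases before an annotated start, 5′ to 3′ on the gene's strand, with capitals for motif matches on either strand. The motifs were the GC box, the AP-1 element, the TATA box and the CCAAT box, the last by the letters of its name. The windows are chr10:120476470-120476719 on the minus strand for Hmga2, chr6:96112904-96113153 on the plus strand for Tafa1 and chr8:123442706-123442955 on the plus strand for Def8.
Hmga2: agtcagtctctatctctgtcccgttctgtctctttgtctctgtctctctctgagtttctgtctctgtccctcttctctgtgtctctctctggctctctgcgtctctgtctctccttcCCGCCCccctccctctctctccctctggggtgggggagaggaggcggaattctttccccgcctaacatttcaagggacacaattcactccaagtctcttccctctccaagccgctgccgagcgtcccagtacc
Tafa1: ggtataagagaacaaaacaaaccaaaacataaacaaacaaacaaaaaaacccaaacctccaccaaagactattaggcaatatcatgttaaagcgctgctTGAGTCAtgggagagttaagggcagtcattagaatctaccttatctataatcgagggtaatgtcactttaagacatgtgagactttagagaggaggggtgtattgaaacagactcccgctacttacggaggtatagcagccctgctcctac
Def8: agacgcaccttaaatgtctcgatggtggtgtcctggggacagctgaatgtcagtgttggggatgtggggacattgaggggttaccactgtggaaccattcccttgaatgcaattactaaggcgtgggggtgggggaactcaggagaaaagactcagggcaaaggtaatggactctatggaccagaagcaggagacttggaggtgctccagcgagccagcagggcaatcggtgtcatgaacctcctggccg
Hmga2 held 1 match to the GC box (GGGCGG), found in 32.7% of the 32851 windows of that length in the table, and the motif is printed as its reverse complement. Tafa1 held 1 match to the AP-1 element (TGACTCA), also read on the other strand, and 4.46% of windows held one. The TATA box (TATAAA) was in 12.4% and the CCAAT box in 33.8% of windows. No motif overlapped another in these windows. The Def8 window held no match to the 4 motifs, nor did that of a second Def8 start at chr8:123443009-123443258. The first Def8 window lies inside the longer GENCODE span of the gene. GC content was 56.4%, 40.8% and 54.8% in the order printed, against a median of 52.4%.

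Some neighbours of Def8 shared its pattern. Among the 5 annotated protein-coding genes on each side of each member, those at least 10-fold higher in Def8-high barcodes in both libraries were Tubb3 and Spire2 beside Def8, and Prl2c3 beside Prl2c2. Over all genes 2.43% were that much higher and 19.3% that much lower. Tubb3, the neuronal class III beta-tubulin gene 1.51 kb from Def8, stood at 78.8 and 72.2 CPM in Def8-high barcodes, 93.3-fold and 34.6-fold above other barcodes. Spire2, an actin nucleator gene 54.01 kb away, stood at 7.70 and 7.51 CPM, 20.1-fold and 16.4-fold higher, on 41 and 82 UMIs in all. Tcf25, which lies between them, stood at 1.23-fold and 1.14-fold. At least 1.5-fold higher, as 20.9% of all genes were, stood 4 of the 8 measured neighbours of Def8 and 4 of 8 of Lgals1. The counts were 3 of 9 for Crabp2, 2 of 9 for Prl2c2, 2 of 10 for Hmga2, 1 of 8 for Dynap, 1 of 7 for Tafa1 and 0 of 5 for Gpc6, so Def8 did not stand apart by this count.

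Outside cluster 20, Def8 was found at a low level in every class of lung cell, and Crabp2, Prl2c2 and Dynap were near absent. A Def8 UMI was present in 11.5% of the 13683 treated and 24.95% of the 14392 PBS barcodes outside the cluster and the Def8-high barcodes. In neutrophil-like barcodes 8.02% of 4524 treated and 17.6% of 1598 PBS barcodes had one, at median depths of 2318.5 and 1404 UMIs. Thinned to 1000 UMIs, which left out 107 and 237 of them, the shares in 1 draw were 3.76% and 12.1%, so the PBS library had the higher share at equal depth. In T-cell-like barcodes the thinned shares were 3.02% and 8.85%. Whether these UMIs are free RNA or the cells' own Def8 was not tested. Crabp2 was found in 0.464% and 0.688% of neutrophil-like barcodes and in 0.504% and 1.13% of all barcodes outside the cluster and the Def8-high ones, at median depths of 2638 and 2352 UMIs. Shares this low are not read as expression.

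**Figure D4:**
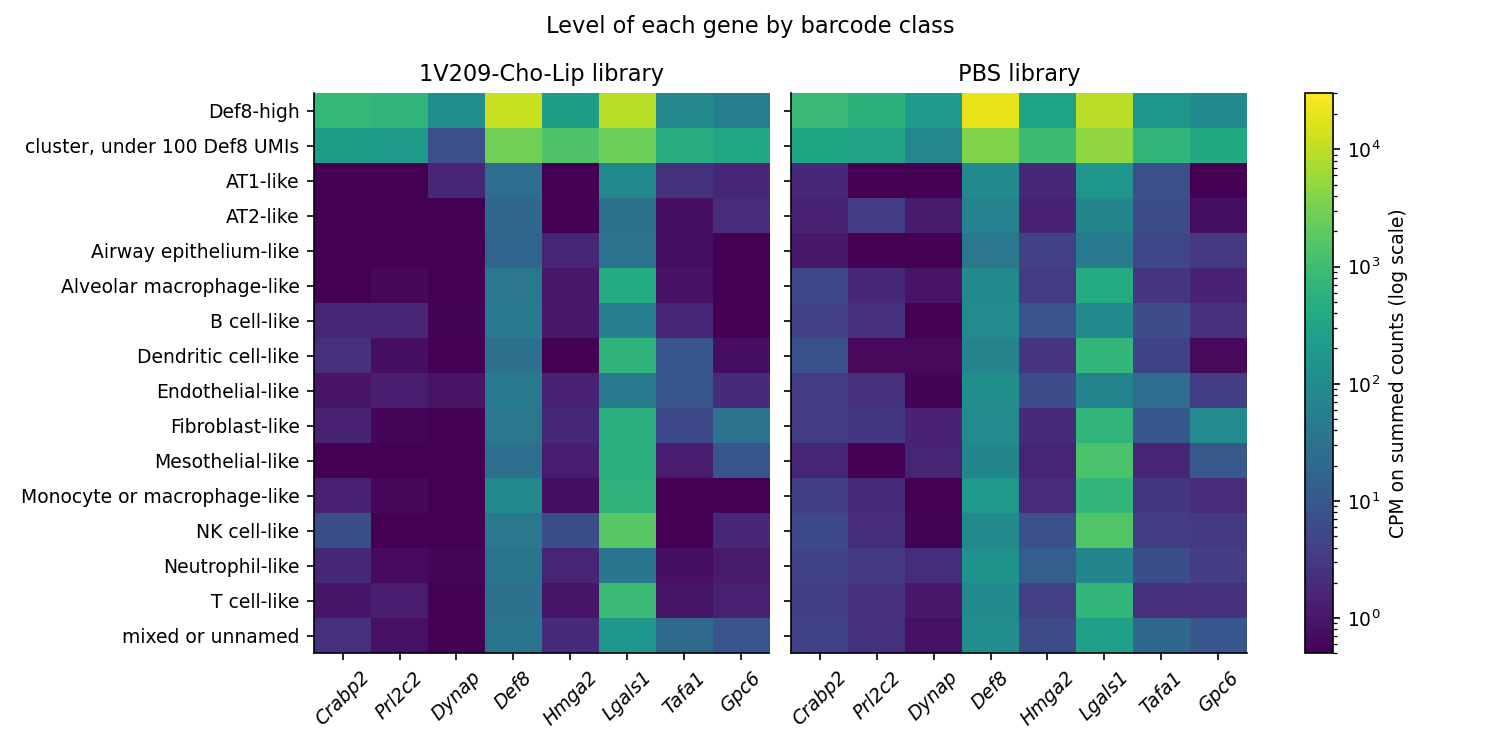
CPM on summed counts (colour, log scale) of each gene (columns) in Def8-high barcodes, in cluster barcodes under 100 Def8 UMIs and in each class of lung barcode (rows), for the treated (left) and PBS (right) library. Def8 is low in every class, Lgals1 is high in NK, T, myeloid, fibroblast and mesothelial-like barcodes, Gpc6 in fibroblast-like barcodes and Tafa1 in the mixed or unnamed row.

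UMIs of the members are given per 100 Def8 UMIs for some classes beside those in Def8-high barcodes. In PBS neutrophil-like barcodes there were 3.27 Crabp2, 2.38 Prl2c2 and 1.49 Dynap UMIs per 100 Def8 UMIs, on 11, 8 and 5 UMIs, against 4.36, 2.83 and 1.04 in PBS Def8-high barcodes. PBS T-cell-like barcodes had 4.27, 2.54 and 1.07. The long genes lay well above the values of Def8-high barcodes in the same classes. PBS neutrophil-like barcodes had 9.82 Hmga2, 5.06 Tafa1 and 2.68 Gpc6 UMIs per 100 Def8 UMIs, on 33, 17 and 9 UMIs, and PBS T-cell-like ones 4.54, 2.40 and 2.40, against 1.40, 0.760 and 0.442 in PBS Def8-high barcodes. Other PBS classes differed from these. Endothelial-like barcodes had 2.90 Crabp2, 1.93 Prl2c2 and 0.483 Dynap UMIs per 100 Def8 UMIs, and B-cell-like ones 4.27, 2.44 and 0.305. Monocyte or macrophage-like ones had 2.14, 1.02 and 0.279. Hmga2 stood at 5.80, 8.84 and 1.12 in these classes in the same order. Most of these values rest on few UMIs. PBS cluster barcodes under 100 Def8 UMIs had 25.5 Hmga2, 18.9 Tafa1 and 10.7 Gpc6 UMIs per 100 Def8 UMIs. They had 9.31 Crabp2, 7.78 Prl2c2 and 2.30 Dynap UMIs. Where the UMIs in the lung classes came from was not tested. Treated neutrophil-like barcodes had 5.06 Crabp2, 1.93 Prl2c2 and 1.69 Dynap UMIs per 100 Def8 UMIs, on 21, 8 and 7 UMIs. Treated Def8-high barcodes had 6.68, 5.99 and 0.974, so Prl2c2 lay lower in the neutrophil-like ones. By summed counts, monocyte or macrophage-like barcodes had the highest Def8 level of the named classes, 98.1 and 181 CPM, and within them cluster 13 stood at 188 and 405 CPM. Thinned to 1000 UMIs, 5.95% and 10.3% of monocyte or macrophage-like barcodes had a Def8 UMI, against 4.47% and 11.7% of endothelial-like ones. In the PBS library the order by detection was thus the reverse. Whether a few barcodes carried the summed level was not tested. There were 1.43 and 2.14 Crabp2 UMIs per 100 Def8 UMIs in monocyte or macrophage-like barcodes, below the 6.68 and 4.36 of Def8-high barcodes. That is, they had more Def8 UMIs for each Crabp2 UMI. At least 1 UMI of Crabp2, Prl2c2 or Dynap was found in 39 of 40 and 127 of 128 Def8-high barcodes, in 14 of 17 and 82 of 102 other barcodes of the cluster, and in 0.914% of 13683 and 2.04% of 14392 barcodes elsewhere.

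Lgals1, Gpc6 and Tafa1 each had a source outside the cluster. Of the named classes, Lgals1 was highest in NK-like barcodes, at 1731 and 1530 CPM, with a UMI in 90.4% and 85.0% of them, against 8.47% and 8.39% of neutrophil-like barcodes. T-cell-like barcodes had 915 and 734 CPM, and cluster 7 among them had 2063 and 1451 CPM in 390 and 1092 barcodes, which in the treated library was above the NK-like level. Lgals1 also stood at 557 and 1329 CPM in mesothelial-like, 651 and 720 CPM in monocyte or macrophage-like and 538 and 666 CPM in fibroblast-like barcodes. The order of these 3 classes differed between the libraries. Gpc6 was highest among named classes in fibroblast-like barcodes, at 33.1 and 99.4 CPM, which held 26.3% and 14.7% of its UMIs. The PBS value was slightly above the 92.7 CPM of PBS Def8-high barcodes, and the treated value below the 56.1 CPM of treated ones. Tafa1 stood at 225 and 198 CPM in cluster 15, above the 86.8 and 160 CPM of Def8-high barcodes. These levels rest on 157 and 88 UMIs from 223 and 176 barcodes of cluster 15. That cluster was raised in 7 of 7 smooth muscle or pericyte markers but was left unnamed because Postn, an osteoblast-list gene, led it. Endothelial-like barcodes had Tafa1 at 9.70 and 25.02 CPM. Hmga2 was at 13.6 CPM or less in every class, and 7.37% and 7.57% of its UMIs lay outside the cluster and the Def8-high barcodes.

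Between the libraries, the RNA of all 8 genes was lower in the treated library as a whole. Over all 21079 genes tested, 19.6% were at least 1.5-fold lower and 13.8% higher, with a median log2 ratio of -0.20. Dynap had 6.16 CPM (treated) and 31.2 CPM (PBS), which gave the lowest ratio of the 8 at 0.198 (0.175 to 0.222). Lgals1 had 777 and 1754 CPM, which gave the highest at 0.443 (0.438 to 0.448). Def8 had a ratio of 0.215, Tafa1 0.291, Hmga2 0.303, Crabp2 0.315, Gpc6 0.335 and Prl2c2 0.428. In a whole library, fewer cells of a type and less RNA per cell cannot be told apart, and the ratio of Def8-high shares was 0.333.

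Within Def8-high barcodes the genes parted. Dynap, Tafa1, Def8 and Gpc6 were at least 1.5-fold lower in the treated library, against 12.1% of 12041 genes tested (13.1% were that much higher), whereas Crabp2, Hmga2, Lgals1 and Prl2c2 lay closer to 1. With 116 CPM in treated and 218 CPM in PBS barcodes, Dynap had a ratio of 0.532 (0.470 to 0.600). Def8, with 11890 and 20984 CPM, had 0.567 (0.560 to 0.573). Its own count chose these barcodes, and a fixed count admits deeper barcodes at a lower Def8 CPM. The treated ones were deeper, with a median of 69996 against 58278 UMIs, so nothing is read from the Def8 ratio. Tafa1 had a ratio of 0.544 (0.472 to 0.626) and Gpc6 0.605 (0.505 to 0.721). Without the 4 PBS barcodes of highest Gpc6, the log2 ratio of Gpc6 went from -0.73 to -0.29, no longer 1.5-fold lower, that of Tafa1 from -0.88 to -0.61 and that of Hmga2 from -0.28 to -0.04. Lgals1 levels were nearly alike, 9352 and 9625 CPM, with a ratio of 0.972 (0.958 to 0.986). Crabp2 was at 0.868 and Hmga2 at 0.824. Prl2c2 was the one member above 1 by summed counts, at 712 and 595 CPM with a ratio of 1.20 (1.13 to 1.26), but its median barcode was lower in the treated library, at 313 against 439 CPM. The intervals leave out the spread between barcodes, which was wide for every gene but Lgals1 and Crabp2. With Def8 at 1% or more of UMIs as the definition, 1 of the 8 genes, Dynap, stayed at least 1.5-fold lower. Neutrophil RNA also differed in Def8-high barcodes, with S100a8 at 246 and 27.8 CPM, and its part in the ratios was not tested.

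**Figure D5:**
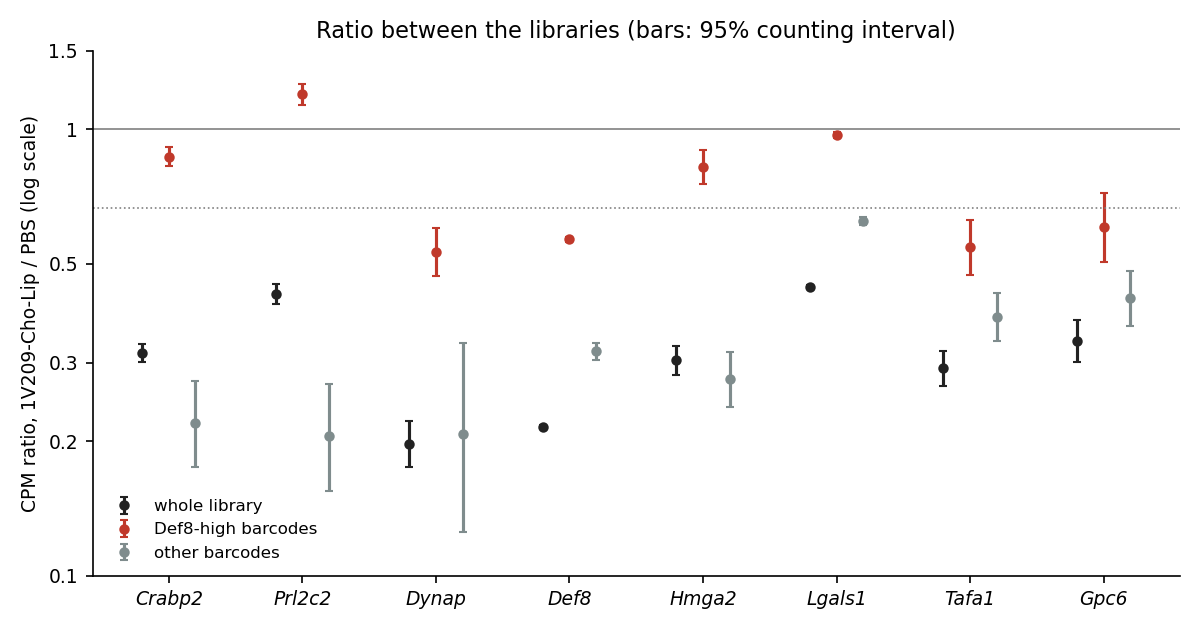
Ratio of CPM in the treated to the PBS library (vertical, log scale) for each gene in the whole library, in Def8-high barcodes and in other barcodes, with 95% counting intervals. The solid line marks 1 and the dotted line a 1.5-fold lower level. All 8 genes are below the dotted line in the whole library and in other barcodes, and 4 are below it in Def8-high barcodes.

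In the other barcodes all 8 genes were again lower in the treated library, against 17.2% of 20605 genes (13% were that much higher). Prl2c2 had 66 and 310 UMIs there, a ratio of 0.205 (0.155 to 0.269), Dynap 0.208, Crabp2 0.219, Hmga2 0.276, Def8 0.319, Tafa1 0.379, Gpc6 0.419 and Lgals1 0.624 (0.612 to 0.636). These barcodes include those of cluster 20 under 100 Def8 UMIs. In an alternative the whole cluster was set aside in place of the Def8-high barcodes. The few Def8-high barcodes outside the cluster then counted among the others, as 37 of 40 treated and 127 of 128 PBS ones lay in it. Under it Tafa1 went from -1.40 to -0.60 on the log2 scale, Gpc6 from -1.26 to -0.76 and Dynap from -2.26 to -1.004. Lgals1 went from -0.68 to -0.46, no longer 1.5-fold lower. The part of those few barcodes in these shifts was not tested.

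Relatives and partners of the members were compared between Def8-high and other barcodes. Over all genes 20.9% were at least 1.5-fold higher and 46% that much lower, and the median log2 ratio was -0.39 (treated) and -0.63 (PBS). The lists were chosen with earlier results known, and the counts are descriptions. In the retinoid list 3 of 15 measured genes were higher, near the share over all genes, and 10 lower, with a median of -0.95 and -1.61. The vitamin A uptake receptor gene Stra6 stood at 48.0 and 24.7 CPM in Def8-high barcodes, 147-fold and 49.7-fold higher. Rarg, a retinoic acid receptor gene, was at 103 and 106 CPM and 3.85-fold and 3.30-fold higher, and Rdh10, which makes retinaldehyde, was 4.05-fold and 3.93-fold higher. Rara, Aldh1a1 and Dhrs3 were among the lower ones. Crabp2's closest relative Crabp1 had 5 and 26 UMIs in all and none in Def8-high barcodes.

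Among the heparan sulfate genes 4 of 15 were higher and 7 lower, both near the shares over all genes, with a median of -0.40 and -0.64. The syndecan genes Sdc2, 8.51-fold and 9.32-fold, Sdc4 and Sdc1 were higher, and so was Gpc1, at 5.33-fold and 3.12-fold. The other glypican genes measured, Gpc3, Gpc4 and Gpc5, were lower, Gpc3 at 0.0631-fold and 0.0142-fold. Of 7 galectin-list genes 2 were higher, Lgals3 at 3.94-fold and 3.45-fold and Lgals3bp at 2.81-fold and 1.80-fold, and Lgals2, Lgals4 and Lgals9 were lower. The galectin median was -0.27 and -0.74. Of the 9 HMGA and let-7 circuit genes measured, Hmga1 was higher at 7.25-fold and 7.96-fold and the other 8 were lower, with a median of -1.15 and -2.07. Lin28a, Igf2bp1 and Igf2, which are often made together with Hmga2 in the embryo, had no UMI in Def8-high barcodes.

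The known partners of Def8 did not share its level. Of 7 genes of lysosome positioning 0 were higher and 5 lower, with a median of -1.64 and -1.74, among them Plekhm1 at 0.213-fold and 0.224-fold and Ndel1 at 0.111-fold and 0.217-fold. Rab7, the late endosomal GTPase gene, was at 0.516-fold and 0.713-fold. All 7 measured genes of the TAFA list were lower, with a median of -2.05 and -1.89, and Tafa2 and Tafa5 had no UMI in Def8-high barcodes. Proliferation genes were high as a group, with 15 of 16 at least 1.5-fold higher, a list median of 3.91 and 3.05 (log2) and Hmgb2 as the exception at 1.43-fold and 1.98-fold. Cdk1, the mitotic kinase gene, stood at 291 and 254 CPM, 45.1-fold and 25.01-fold higher, and Mki67 was found in 76.6% of PBS Def8-high barcodes.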

How the data were processed

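Each library is a 10x single-cell count matrix of UMI counts that the authors deposited unnormalised. Cell Ranger 9.0.1 made it per the file headers, on mm10 per the submitters' processing notes. The kit's read end and the annotation release are not given in the sources used here. All deposited barcodes were used (lowest total 500 UMIs). CPM and ratios were computed on summed counts, with exact Clopper-Pearson intervals for shares and exact conditional binomial intervals for ratios (95%). Genes needed 20 UMIs over both libraries. Gene positions came from GENCODE vM21, which matched 52081 of 55357 identifiers. Here the 2 libraries were clustered without the 8 genes (2026 variable genes, 30 components, 15 neighbours, Leiden resolution 1). A class needed 3 markers and 50% of its list at log2 1 or more above the rest, and 14 of 33 clusters stayed mixed or unnamed. Naming thresholds, and the rule that left a heart-muscle-led cluster unnamed, were set after clusters were seen. Members and lists were chosen with earlier results of these data known. The genes named besides the members are the 10 most alike by share (leaving out predicted, mitochondrial, ribosomal, haemoglobin and antigen receptor genes), up to 4 genes of each list by UMI total plus its extremes by ratio, and neighbours at least 10-fold higher, some of which are not reported here. S100a8, Alpl, Postn, Cdh11, Tcf25, and further list genes were named after their values were seen. Doublets were called with Scrublet and kept in the main results. Alternatives covered the Def8 definition, filters, doublets, scaling (TMM in edgeR 4.0.16 and median of ratios), minimums, thinning and clustering resolution. Intervals were tested on simulated data. Clustering used Scanpy 1.11.5 with igraph 0.11.9 and scikit-learn 1.9.0. Sums and intervals used Python 3.11.15 with pandas 2.3.3, scipy 1.17.1 and numpy 2.4.6. Figures used matplotlib 3.10.9.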

Additional observations from a re-analysis of the deposited data

How the results depend on the processing

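With Def8 at 1% or more of UMIs as the definition, the ratio of Def8-high shares was 0.187 (17 and 97 barcodes), 1 in place of 6 genes had at least 50% of their UMIs in such barcodes in both libraries, and 1 in place of 4 genes was at least 1.5-fold lower within them. Without thinning, the median number of members found per treated Def8-high barcode was 8, and with thinning to 1000 UMIs it was 3 for treated and 4 for PBS barcodes. Without thinning, 17.6% of PBS neutrophil-like barcodes had a Def8 UMI. The counts of members lower in the whole library and in other barcodes, and the count of list genes higher in Def8-high barcodes (25 or 26), stayed within 1.5-fold of the values reported under every alternative run. TMM moved the median log2 ratio of all genes from -0.20 to -0.01 in the whole library and left all 8 genes at least 1.5-fold lower there and 7 in other barcodes. Of the single-gene ratios in Def8-high barcodes under alternatives 117 kept and 3 changed their sign, those of Hmga2 and Lgals1 at 1% Def8 (0.04 and 0.03 on the log2 scale) and that of Prl2c2 by barcode medians (-0.49). Leaving out the PBS and treated barcode with the most Def8 UMIs left Def8 at -0.78. With 1 library per group no library could be left out, and differences between mice cannot be told apart from treatment. Without barcodes found in both libraries, with the whole cluster as the group, without each gene's top barcode, without the 4 barcodes of highest Gpc6 and by barcode medians were chosen after seeing the data. No paired analysis was possible because each group has a single library and the labels carry no replicate numbers.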

Other observations

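Markers of other lung cells were mostly low in Def8-high barcodes, with exceptions. Of the 6 or 7 markers per class, all were at least 1.5-fold lower than in other barcodes for the neutrophil, T-cell, NK, dendritic, endothelial, AT2 and alveolar macrophage lists. Over all genes 46% were that much lower. All 5 airway epithelium and all 4 erythroid markers were lower too, and 5 of 6 B-cell markers. The water channel gene Aqp5, known from AT1 cells, stood at 361 and 442 CPM in treated and PBS Def8-high barcodes, was found in 95% and 96.9% of them and was 9.23-fold and 35.3-fold higher than elsewhere, while the AT1 genes Ager, Rtkn2 and Cldn18 were lower. Def8-high barcodes held 84.7% of all Aqp5 UMIs in the PBS library but 32.6% in the treated library. Csf1r, the receptor gene of the macrophage growth factors, stood at 316 and 399 CPM and was found in 100% and 99.2% of these barcodes, while the other 7 genes of its list were lower, and C1qa was found in 17.5% and 11.7%. Msln, a mesothelial gene, was 3.46-fold and 3.12-fold higher, Col3a1 9.13-fold and 6.21-fold and Pdgfrb 3.72-fold and 5.65-fold. Each was the only gene of its list at least 1.5-fold higher in both libraries. Lower by that much were 3 of 5 mesothelial, 5 of 7 fibroblast and 4 of 7 smooth muscle or pericyte markers. The immunity-related genes Ubd, Apol9a and Apol9b, all among the genes most alike to the members, stood at 128, 268 and 280 CPM in treated Def8-high barcodes and at 68.0, 180 and 175 CPM in those of the PBS library.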
